A study of Zea mays with 15 samples.

Results

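The steady genes of the growing maize leaf described here are the 150 genes whose read level varied least among 14 libraries from 3 leaf zones, with and without solar UV-B. They were chosen from 5087 candidate genes, out of 39145 genes in the table, whose mean level was at least 50 CPM (reads of a gene per 1000000 reads of its library). The choice ranked candidates by the coefficient of variation (CV), which is the SD over the 14 libraries divided by the mean, and took the lowest. Because measured levels chose these genes, their low spread is a description here and not a result.

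A maize leaf grows from its base, so segments taken from the base upwards pass from dividing cells to expanding cells and then to tissue that becomes green. Most studies of such a gradient ask which genes change. Genes that hold their level serve another purpose: as reference genes they scale measurements by quantitative PCR, where the amount of a transcript is given relative to one assumed to be constant. Tubulins, actins, ubiquitins, elongation factors and GAPDH are common choices for this in plants, and each of these families holds several genes in maize.

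Libraries of polyadenylated, stranded RNA came from leaf 4 of the inbred line B73, grown outdoors and sampled 3 days after the leaf emerged. Control plants received 0.35 W/m2 of solar UV-B through a plastic filter, and UV-B plants received 1.5 W/m2 through another; UV-A was 8 W/m2 for either treatment. Zone 1 was 0 to 1 cm, zone 2 was 1 to 2 cm and zone 3 was 2 to 3 cm from the leaf base. Control zones 1, 2 and 3 gave 3, 2 and 3 libraries, labelled as biological replicates, and UV-B zones 1, 2 and 3 gave 1, 3 and 2 that could be used.

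The 14 libraries held 1673416 to 19221143 reads, and UV-B zone 3 replicate 1, with 728 reads, was left out. Depth was unequal along the leaf: control zone 1 had 11147867 to 17923081 reads and control zone 3 had 2007679 to 6222019. The zone labels were checked with 4 genes. RNRL2, a ribonucleotide reductase subunit that supplies DNA precursors, averaged 139.4 ± 17.1 CPM (SD, n = 3) in control zone 1 and 14.3 ± 3.71 CPM (n = 3) in control zone 3. GIF1, a growth regulator of dividing leaf tissue, averaged 74.4 ± 16.3 CPM and 0.640 ± 0.141 CPM in the same zones. The Rubisco small subunit gene ssu1 went the other way, from 8.11 ± 4.98 to 357 ± 104 CPM, and the photosystem I gene psad1 from 0.703 ± 0.261 to 31.5 ± 8.86 CPM. CPM are shares of a library, so a level CPM does not show how much of the transcript a cell held. In segments of mixed tissue, fewer cells of a type and less RNA per cell cannot be told apart.

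The CV of the 150 genes ran from 4.44% to 11.2%, with a median of 9.70%, while the median of all 5087 candidates was 30.2%. For the median gene among the 150, the highest library held 1.39 times the CPM of the lowest. Over all candidates this ratio had a median of 2.69. Between the highest and lowest of the 6 group means, the median ratio was 1.197 for the steady genes and 1.95 for all candidates. Counting error alone would give a median CV of 4.24% at the levels and depths of the 150 genes, against 4.48% over all candidates. The 150 were not the most strongly read genes: their mean level had a median of 101 CPM, and that of all candidates was 90.3 CPM. The last genes taken were GRMZM2G142757, GRMZM2G025281 and GRMZM2G029396, with CVs of 11.20%, 11.21% and 11.22%. The next ones, GRMZM2G407044, GRMZM2G151414 and GRMZM2G090274, had 11.27%, 11.27% and 11.29%. No gap therefore separated the genes inside the limit of 150 from those outside.

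**Figure D1:**
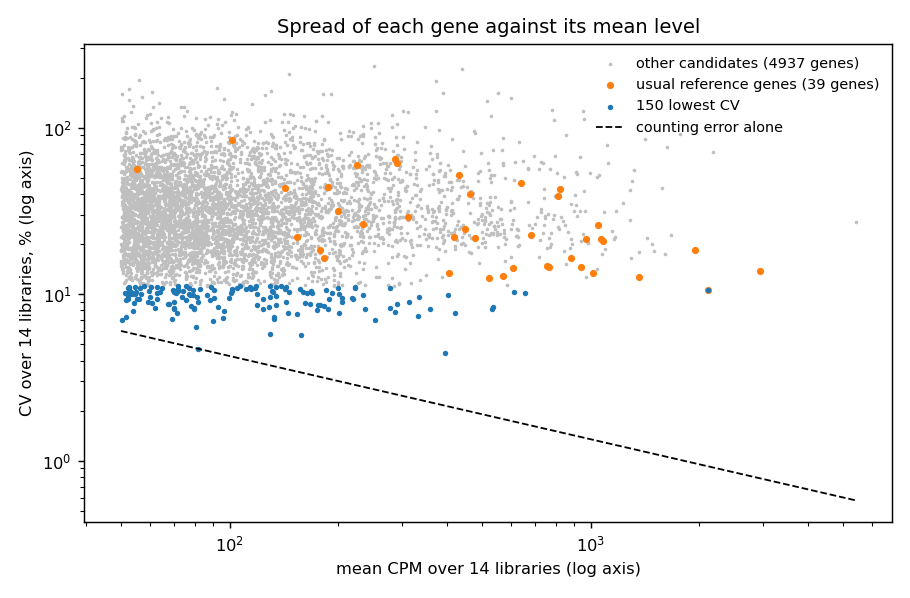
Each point is 1 candidate gene, with its mean CPM over 14 libraries on the x axis and its CV in percent on the y axis, both on log scales; blue points are the 150 genes of lowest CV, orange points are 39 genes of families often used as references, and the dashed line is the CV that counting error alone would give. The 150 lie at all levels from 50.3 to 2112 CPM, mostly well above the dashed line, and the orange points lie almost entirely above them.

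The lowest CV of all, 4.44%, belonged to GRMZM2G110378 (chromosome 6, 41395224 to 41398185 on the build of the deposited table), which has no name in the annotation used. Its level was 405.8, 406.0 and 385.5 CPM in control zone 1, 402.5 and 416.2 in zone 2, and 375.6, 380.1 and 404.5 in zone 3. Under UV-B it was 381.6 CPM in zone 1, 374.7, 416.6 and 419.4 in zone 2, and 373.2 and 376.5 in zone 3. The ranges of the control zones overlapped, and its highest library, UV-B zone 2 replicate 3, held 1.12 times the CPM of its lowest, UV-B zone 3 replicate 2.

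The second gene was hda101 (GRMZM2G172883, chromosome 4, 231335845 to 231342828), a histone deacetylase of the RPD3 type, which removes acetyl groups from histones, with a CV of 4.71%. It stood at 74.7, 80.2 and 83.1 CPM in control zone 1, 82.3 and 82.9 in zone 2 and 83.7, 79.5 and 86.8 in zone 3. In UV-B libraries it was 82.6 CPM in zone 1, 84.2, 83.0 and 88.0 in zone 2 and 74.6 and 79.5 in zone 3. Its lowest value was in UV-B zone 3 and its highest in UV-B zone 2, and the control zones overlapped. Counting error alone would give this gene a CV of 4.71%, as large as the CV measured, while for GRMZM2G110378 it would give 2.15%.

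Rank 4 was the MAP kinase gene MPK5 (GRMZM2G020216, also mpk2, chromosome 9, 18879526 to 18885415), whose product passes on stress and abscisic acid signals in maize leaves, with a CV of 5.81%. It was measured at 122.6, 126.2 and 122.1 CPM in control zone 1, 120.6 and 131.1 in zone 2 and 125.5, 130.9 and 132.6 in zone 3. The UV-B libraries held 121.7 CPM in zone 1, 134.8, 138.7 and 140.5 in zone 2 and 122.0 and 142.2 in zone 3. All 3 libraries of UV-B zone 2 were above all 8 control libraries, and the control zones overlapped each other.

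The rest of the first 10 were genes without a name. GRMZM2G177263, GRMZM2G120857, GRMZM2G028766 and GRMZM2G449569 had CVs of 5.73%, 6.37%, 6.87% and 6.99%. GRMZM2G181359, GRMZM2G158595 and GRMZM2G104373 followed at 7.04%, 7.11% and 7.12%. Only 24 of the 150 had a gene name in the annotation, which was 16%, against 16.1% of all candidates, so most of the steady genes can be described here by identifier alone.

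**Figure D2:**
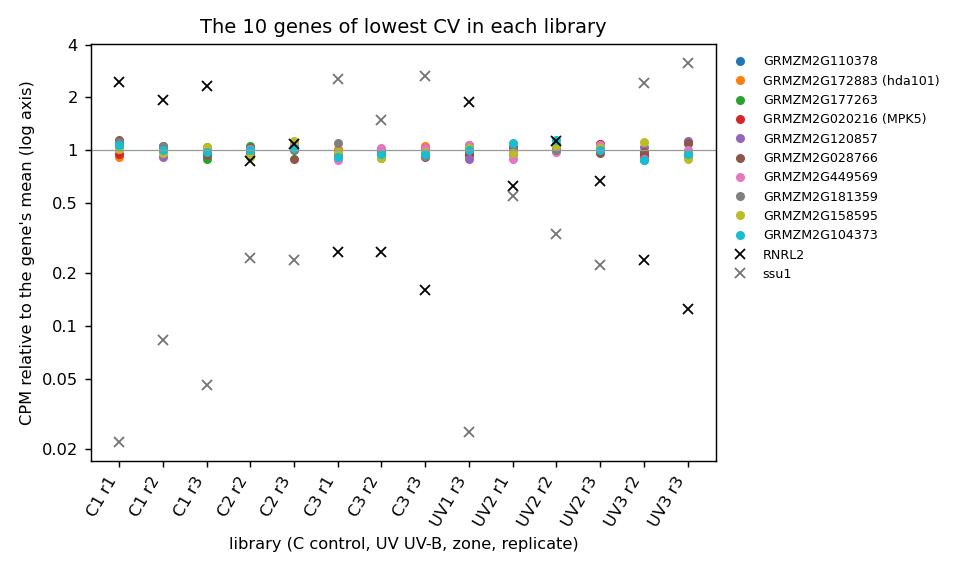
The 10 genes of lowest CV are shown as coloured points in each of the 14 libraries (x axis: C for control, UV for UV-B, then zone and replicate), as CPM relative to the gene's mean over the libraries on a log axis; crosses are RNRL2 and ssu1, which mark dividing and greening tissue. The coloured points stay close to 1 in all libraries, while RNRL2 falls and ssu1 rises from zone 1 to zone 3.

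Among signalling genes, 1 of 4 candidate MAP kinases, 2 of 8 other signalling kinases and 1 of 5 protein phosphatases 2C were steady genes. So were 2 of 2 heterotrimeric G protein subunits and 0 of 5 ROP GTPases. Of all candidates 2.95% were steady genes. These lists were filled by symbol after the table was seen and are too small to set against that share. The other MAP kinase candidates were also below the median CV of all candidates: MPK7 (GRMZM2G002100) had 11.6%, ZmMPK6 (GRMZM2G089484) 15.4% and simk1 (GRMZM2G127141) 18.7%. Of the 5 candidate protein phosphatases 2C, a family with members that hold back abscisic acid signalling, all 5 were below that median and 1 was among the 150. This was PP2C21 (GRMZM2G073788), with a CV of 10.04% and group means between 52.7 ± 5.45 CPM in control zone 3 and 62.1 ± 3.50 CPM in UV-B zone 3 (SD, n = 3 and n = 2).

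Among 8 other signalling kinases, 7 were below the median of candidates and 2 were steady genes. The gene cka2 (GRMZM2G047855), which encodes a catalytic subunit of casein kinase 2, averaged 154.8 ± 7.99 CPM in control zone 1, 146.8 ± 0.0445 in zone 2 and 130.9 ± 16.4 in zone 3. SnRK2.8 (GRMZM2G138861), a kinase of a family activated by osmotic stress, averaged 83.3 ± 3.50, 77.2 ± 4.49 and 86.7 ± 13.3 CPM in the same zones. In contrast, the calcium-dependent kinase gene CPK21 (GRMZM2G463464) had a CV of 38.0%, with a mean of 117.0 CPM in control zone 1 and 52.4 CPM in zone 3.

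The annotation named 2 subunit genes of heterotrimeric G proteins, which relay signals from receptors at the plasma membrane, and both were among the 150. The alpha subunit gene ct2 (GRMZM2G064732), known for its part in the size of the maize shoot meristem, had a CV of 10.8% and averaged 76.8 ± 6.31, 85.6 ± 12.7 and 83.0 ± 9.04 CPM in control zones 1, 2 and 3. The beta subunit gene GB1 (GRMZM2G045314) had a CV of 10.9% and averaged 115.3 ± 5.61, 107.1 ± 4.16 and 92.5 ± 7.53 CPM. Its libraries in control zone 1 (110.0 to 121.2 CPM) lay above those of control zone 3 (84.7 to 99.7 CPM) without overlap, whereas those of ct2 overlapped. The 5 candidate ROP GTPases, small GTPases that guide polar growth, had a median CV of 28.5%, with 3 of them below the median of all candidates.

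In chromatin and the cell cycle, 1 gene of a family was steady while its relatives were not. Beside hda101, the other RPD3-type and related deacetylase candidates had CVs of 20.6% (hda113) to 28.3% (HDA108). The plant-specific HD2-type genes hdt102 and hdt103 had 53.2% and 61.6%, and hdt103 averaged 1055 CPM in control zone 1 and 204.8 CPM in zone 3. Core histone candidates, 27 in number, had a median CV of 58.3%, with none below 45.6%.

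CDC2 (GRMZM2G008327), annotated as a cyclin-dependent kinase of the kind that drives the cell cycle, had a CV of 9.51%. It stood at 78.3, 92.3 and 87.0 CPM in control zone 1, 92.4 and 71.0 in zone 2 and 102.6, 84.9 and 94.0 in zone 3. Under UV-B it was 103.4 CPM in zone 1, 90.6, 91.2 and 93.9 in zone 2 and 89.2 and 97.4 in zone 3. Its lowest and highest control values were in zones 2 and 3, and the 3 control zones overlapped. The 7 candidate cyclin-dependent kinases and cyclins, the partners of such kinases, had a median CV of 45.6%, and 3 were below the median of all candidates. At the far end, cyclin8 (GRMZM2G138886) had a CV of 80.4%, with means of 143.7, 76.0 and 9.27 CPM in control zones 1, 2 and 3. Among 10 DNA replication candidates none was below the median CV of all candidates, and the lowest CV was 44.0%.

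The named regulators of transcription among the 150, by family, were EREB14, NAC120, FHA17 and TIFY23. EREB14 (GRMZM2G018398), of the AP2/ERF family, had a CV of 8.12% and group means from 73.4 ± 0.739 CPM (UV-B zone 3, n = 2) to 84.2 ± 11.1 CPM (control zone 1, n = 3). NAC120 (GRMZM2G176677) had 9.24% and FHA17 (GRMZM2G424241) 8.92%. These are CVs of total reads. By reads unique to a transcript EREB14 and FHA17 differed between control zones 1 and 3, and by transcript shares of total reads NAC120 and FHA17 did, as given below. TIFY23 (GRMZM2G080509), of the family that holds the repressors of jasmonate signalling, had 10.2%, and its relative TIFY27 (GRMZM2G089736) had 54.7%, with 28.0 CPM in control zone 1 and 93.5 CPM in zone 3. None of 8 auxin response factor candidates was below the median CV of all candidates.

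Energy supply and organelle import were represented by small sets. ANT2 (GRMZM2G135186) encodes an ADP/ATP carrier of the inner mitochondrial membrane and had a CV of 8.40%, with 509.3 ± 25.2, 583.8 ± 74.1 and 533.0 ± 32.9 CPM in control zones 1, 2 and 3. ATPB (GRMZM2G113408) encodes the beta subunit of an ATP synthase and had 10.1%, with a mean of 636.9 ± 50.9 CPM in control zone 1 and 697.3 ± 42.5 CPM in control zone 3. The second carrier gene ANT1 (GRMZM5G837108) had 14.3% and was not among the 150. Of 3 mitochondrial porin candidates, none was among the 150, and all 3 were below the candidates' median, at 12.7% to 22.3%.

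The receptors toc34 (GRMZM2G159777) and toc35 (GRMZM2G157157), which admit proteins into plastids at the outer envelope, were both steady by the rule, with CVs of 10.4% and 11.2%. Libraries of control zone 1 held 130.5, 140.3 and 127.0 CPM of toc34, and those of control zone 3 held 154.9, 162.2 and 172.6 CPM. For toc35 they held 99.8, 104.3 and 97.8 CPM in zone 1 and 112.6, 120.0 and 122.6 CPM in zone 3. In both genes zone 3 was above zone 1 in the control plants without overlap, by less than 1.3 times in the means. Nuclear genes for the proteins that such receptors admit were far from steady: 18 photosystem, antenna and Rubisco candidates had a median CV of 98.0%.

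Other named members belonged to lipid, wall and redox metabolism. PIS (GRMZM2G110646), which makes the membrane lipid phosphatidylinositol, had a CV of 7.75% and means of 75.6 ± 3.74, 67.8 ± 1.16 and 66.0 ± 3.75 CPM in control zones 1, 2 and 3. The gene kds1 (GRMZM2G119256), whose product activates the sugar KDO for the pectin rhamnogalacturonan II, had 10.5%. Dehydroascorbate reductase dhar1 (GRMZM5G855672), which regenerates ascorbate, had 10.9% and was the only member among 17 candidates for antioxidant and glutathione enzymes, whose CVs ran up to 89.5%. Still other named members were paa, FDH, fcr1 and IPP, with CVs of 9.34%, 9.41%, 9.97% and 11.1%.

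Some larger families gave no gene to the 150, which at 2.95% of all candidates is a small difference for lists of this size, so their CVs are the better description. Of 48 candidates for cytosolic ribosomal proteins, 33 were below the median CV of all candidates and none was a steady gene; their CVs ran from 15.7% to 69.1%. Splicing factors of the SR type (14 candidates) had a median of 23.1%, and protein disulfide isomerases (10 candidates) of 20.7%. Cellulose synthases (10 candidates), plasma membrane aquaporins (6), heat shock and chaperonin genes (10) and benzoxazinoid genes (8) had medians of 45.3%, 60.7%, 60.4% and 62.3%. Since few genes have names, these counts describe the named part of each family.

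**Figure D3:**
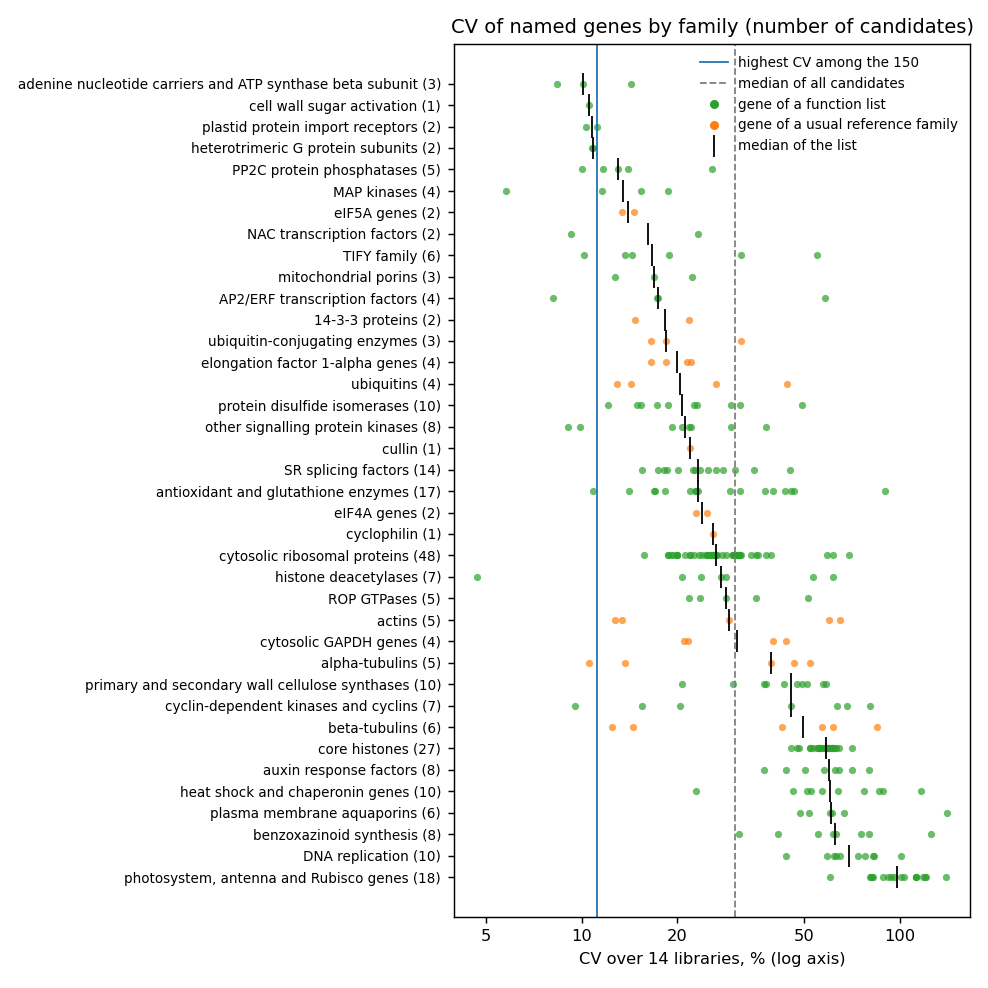
Each point is the CV over 14 libraries (log axis, in percent) of 1 named candidate gene, by family, with the number of candidates in brackets; green marks function lists, orange the families used as references, black bars the median of a list, the blue line the highest CV among the 150 (11.2%) and the dashed line the median of all candidates (30.2%). Points left of the blue line are the 2 G protein subunits, the 2 plastid import receptors and single genes or pairs of other small families, and photosynthesis, DNA replication and core histone genes lie wholly right of the dashed line.

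Among 39 candidates from 12 families commonly taken as references, 1 belonged to the 150. That was 2.56% of them, close to the 2.95% of all candidates that are among the 150, and 26 of the 39 were below the median CV of all candidates. The steady one was the alpha-tubulin gene TUBA4 (GRMZM2G152466, chromosome 5, 9481737 to 9485476), a building block of microtubules, at rank 113 with a CV of 10.6%. Control zone 1 held 2332, 1837 and 1871 CPM of TUBA4, zone 2 held 2167 and 2436, and zone 3 held 2036, 1977 and 2171. UV-B zone 1 held 2374 CPM, zone 2 held 1805, 1937 and 2371, and zone 3 held 1945 and 2311. The control zones overlapped, and the single library of UV-B zone 1 lay above all libraries of the other groups except control zone 2. Reads of near-identical tubulins may be split between genes by the counting, so the value of a single tubulin is uncertain. Of the reads of TUBA4, 0.202% were unique to 1 of its transcripts, which says nothing of reads shared with other tubulin genes. By edgeR's test its transcript shares differed between control zones 3 and 1 in total reads (adjusted p = 0.0219). In unique reads they were not called (adjusted p = 0.880).

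Families differed widely within themselves. TUBA1 (GRMZM2G153292, also annotated TUBA2) had a CV of 13.7%, while TUBA6 (GRMZM2G083243) had 52.1% and averaged 190.9 CPM in control zone 1 and 682.0 CPM in zone 3. Of the beta-tubulins, TUBB7 (GRMZM2G043822) had 12.5%, TUBB5 (GRMZM2G133802) 14.5% and TUBB4 (GRMZM2G066191) 84.5%. Of the actins, GRMZM2G067985 (annotated Actin-7) had 12.7% at rank 278, and GRMZM2G006765, which carries the same name, had 64.6%, with means of 88.1 CPM in control zone 1 and 515.2 CPM in zone 3. A reference taken by family name could thus be a gene near the steady set or one that differs several times in level between zones.

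For other families the gene of lowest CV was MUB3 of the ubiquitins (GRMZM2G409726, 12.9%), eif5a (GRMZM2G113696, 13.4%), the 14-3-3 gene grf1 (GRMZM2G102499, 14.8%) and elfa2 of the elongation factors 1-alpha (GRMZM2G149768, 16.6%). Cytosolic GAPDH genes started at 21.0% with GAPC2 (GRMZM2G180625), which averaged 854.2 CPM in control zone 1 and 1307 CPM in zone 3. Cullin-1 (GRMZM2G166089), the cyclophilin CYP (GRMZM2G326111) and the eIF4A gene tif-4A3 (GRMZM2G027995) had 22.0%, 25.9% and 22.9%. The genes of highest CPM in their families were EF1A (GRMZM2G153541, 18.4%), MUB14 (GRMZM2G419891, 14.3%) and those given first for actins, eIF5A, eIF4A, 14-3-3 and GAPDH.

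Over the libraries, the median level of the 150 genes relative to each gene's own mean ran from 0.945 in control zone 1 replicate 3 to 1.06 in UV-B zone 2 replicate 2. The 150 together took 2.12% to 2.38% of the reads of a library. In each library 136 to 150 of them were within 20% of their own mean. Control zone 1 replicate 3 was the lowest library for 25 of the genes and control zone 2 replicate 3 the highest for 25, so extremes were not spread evenly over libraries. The median of all candidates ran from 0.911 to 1.007.

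**Figure D4:**
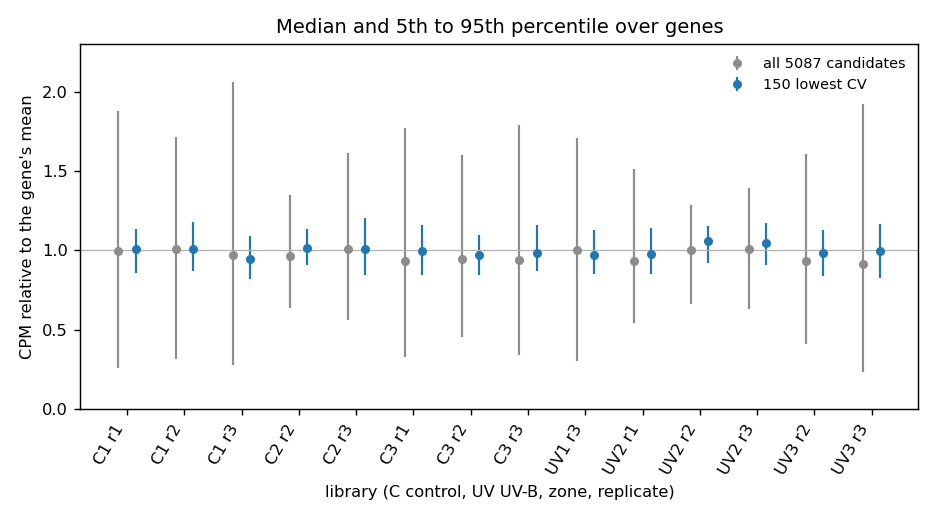
For each library (x axis: C for control, UV for UV-B, then zone and replicate) points give the median over genes of CPM relative to the gene's mean, and bars the range from the 5th to the 95th percentile of genes, in blue for the 150 genes and grey for all 5087 candidates. Grey bars are widest in zones 1 and 3 and narrower in zone 2, while the blue bars are shorter than the grey ones in all libraries, from 0.906 to 1.14 in control zone 2 replicate 2 and from 0.847 to 1.21 in control zone 2 replicate 3.

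Small differences remained among the control zones. Of the 150, 62 (41.3%) had their highest control mean in zone 2, 37 in zone 1 and 51 in zone 3. Of all candidates, 908 (17.9%) had it in zone 2. The lowest mean was in zone 1 for 65 of the 150, in zone 3 for 64 and in zone 2 for 21. The rule keeps out genes with a large slope along the leaf, and zone 2 had 2 control libraries against 3 in the others, so these counts are given as a description.

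Steadiness was also measured in libraries that had no part in the choice. When the 150 genes of lowest CV were chosen from the 8 control libraries, their median CV in the 6 UV-B libraries was 12.1%, against 28.9% for all 5132 candidates of that choice. Of these 150, 147 were below the median of all candidates in UV-B libraries and 82 (54.7%) were among the lowest 10% by CV. With the choice made from the UV-B libraries, the median CV in control libraries was 13% against 30.6%, with 147 genes below the median and 85 (56.7%) among the lowest 10%. The 2 choices had 34 genes in common, 22.7% of each, and 33 of those belong to the 150 chosen from all libraries; hda101, MPK5, PIS, EREB14, ANT2 and NAC120 are among them. The remaining one was Sal1 (GRMZM2G117935), at rank 290. Libraries of both treatments came from the same zones and line, so the 2 sets of libraries share the gradient.

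**Figure D5:**
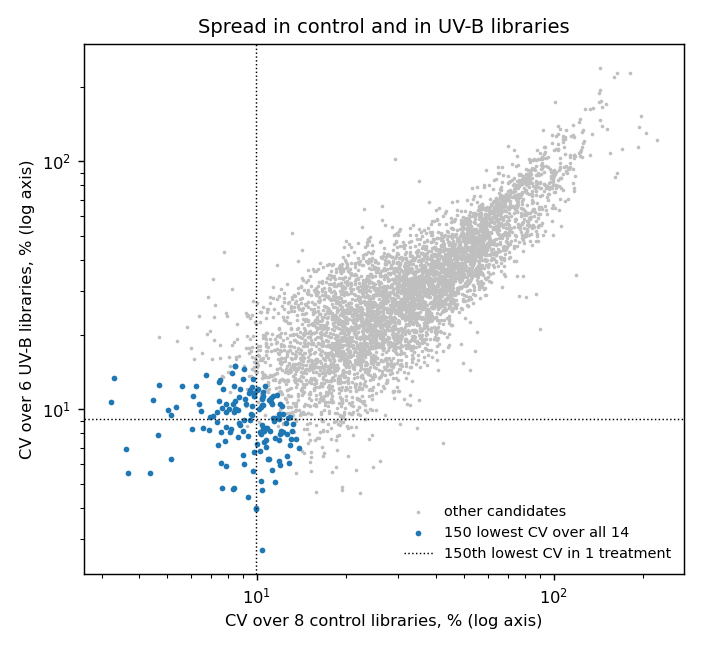
Each point is 1 candidate gene, with its CV over 8 control libraries on the x axis and over 6 UV-B libraries on the y axis, in percent and on log scales; blue points are the 150 genes of lowest CV over all 14 libraries and dotted lines mark the 150th lowest CV in control libraries (9.94%) and in UV-B libraries (9.16%). Blue points lie in the lower left corner, on both sides of the dotted lines.

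Between control zones 3 and 1, edgeR's quasi-likelihood test called 12263 of 23899 genes (51.3%) at an adjusted p under 0.05. It called 3033 of the 5087 candidates (59.6%) and 1 of the 150 steady genes, with 6 of the 150 at an unadjusted p under 0.05. Since the rule used the same counts, nothing is read from this difference, nor from the sizes of the changes, which it kept small: the median of the absolute log2 fold change was 0.13 over the steady genes and 0.78 over the candidates. The log2 changes of the steady genes ran from -0.29 to 0.40. The replicate numbers paired the libraries of these zones, and with the replicate number as a block 10 of the 150 and 14952 of all genes were called.

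The called gene was GRMZM2G160184 (chromosome 2, 114878357 to 114884329). It held 60.9, 54.7 and 52.7 CPM in control zone 1 and 69.2, 64.7 and 69.8 CPM in control zone 3. Zone 3 was higher without overlap, by 0.36 ± 0.13 on the log2 scale (SE, adjusted p = 0.0354). The call was lost when control zone 1 replicate 2 or 3, or control zone 3 replicate 2 or 3, was left out. Its unique reads, 4.398% of its total, went the opposite way, lower in zone 3 by 1.42 ± 0.53 on the log2 scale (adjusted p = 0.0444), and its transcript shares by total reads differed too (adjusted p = 0.0330).

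The largest differences between these zones were those of GRMZM2G142757 (log2 0.40 ± 0.16), toc34 (GRMZM2G159777, 0.39 ± 0.19) and GRMZM2G035417 (0.38 ± 0.17), with higher values in zone 3. With higher values in zone 1 they were GRMZM2G089365 (-0.29 ± 0.14), GRMZM2G055905 (-0.27 ± 0.15) and GB1 (GRMZM2G045314, -0.23 ± 0.15). Without the block none of these 6 passed the test, with adjusted p between 0.0554 and 0.215. With it the 3 that were higher in zone 3 passed, at adjusted p of 0.0183 (GRMZM2G142757), 0.0205 (toc34) and 0.0243 (GRMZM2G035417), and the 3 that were lower did not, at 0.0698 to 0.178. The plastid import receptor toc35 (GRMZM2G157157, log2 0.32 ± 0.13, adjusted p = 0.0426) and kds1 (GRMZM2G119256, 0.34 ± 0.14, adjusted p = 0.0413) also passed only with the block. The median SE of a steady gene was 0.16 on the log2 scale without the block and 0.14 with it. These log2 changes were scaled by TMM, whereas the CPM printed here were scaled by library totals. TMM factors were 1.009 to 1.038 in control zone 1 and 0.956 to 1.004 in control zone 3. Rises towards zone 3 are therefore larger, and falls smaller, on the log2 scale than in CPM. The median log2 change over the steady genes, without the block, was 0.10.

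Between UV-B and control libraries over the zones, 7 of 23899 genes (0.0293%) were called by edgeR and none of the 150, with 0 of the 150 at an unadjusted p under 0.05. DESeq2 called 66 genes and 0 of the 150. Log2 changes of the steady genes under UV-B ran from -0.21 to 0.12, with a median SE of 0.10. The lowest was that of GRMZM2G041275 (-0.21 ± 0.12) and the highest that of GRMZM2G119546 (0.12 ± 0.087). Of the named genes, ATPB had the lowest value (-0.21 ± 0.14), with 531.2 CPM in the single library of UV-B zone 1. As so few genes of any kind were called, the UV-B contrast does little to set the steady genes apart.

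A level total can hide a change among the transcripts of a gene, which the rule did not use. The deposited table gives, beside total reads, the reads unique to a transcript. In all 26533 genes with 1 annotated transcript unique and total reads were equal in all 15 libraries, so unique reads tell transcripts of the same gene apart and say nothing of reads shared between genes. Of the 150, 35 had 1 transcript and 115 (76.7%) had 2 or more, against 66.7% of all candidates with 2 or more.

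With edgeR's test of transcript shares on unique reads, 152 of 2962 genes (5.13%) differed between control zones 3 and 1. Of the steady genes 37 could be tested, 3 of them had an unadjusted p under 0.05 and 1 was called. It was GRMZM2G177263 (chromosome 2, 10880388 to 10889896), at rank 3. Its second transcript took 4.01%, 1.39% and 6.17% of the gene's unique reads in control zone 1, 0% and 6.48% in zone 2, and 0%, 0% and 0.214% in zone 3. The share was lower in zone 3 without overlap (log2 change relative to the gene -3.55, gene adjusted p = 0.0276). The 2 control libraries of zone 2 stood at the opposite ends. These shares rest on few reads, 19, 13 and 32 of the second transcript in control zone 1 and 0, 0 and 1 in zone 3, and the call was lost when any library of control zone 3, or control zone 1 replicate 1 or 3, was left out.

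The next smallest adjusted p were 0.0871 for GRMZM2G046924, 0.101 for GRMZM2G172011, 0.243 for GRMZM2G024310 and 0.300 for GRMZM2G156068. Between UV-B and control no gene was called out of 2962 (0%), with 1 of the 37 steady genes at an unadjusted p under 0.05, again GRMZM2G177263 (unadjusted p = 0.00909), and limma-voom called none either. When total reads per transcript were used, which include the authors' assignment of reads that fit several transcripts, 2230 of 9523 genes (23.4%) and 40 of 103 steady genes (38.8%) were called between control zones; over all candidates it was 35.9%. Named genes among these 40 were FDH (adjusted p = 0.00208), FHA17 (0.00270), SnRK2.8 (0.00350), IPP (0.00924), NAC120 (0.0118) and TUBA4 (0.0219). Between treatments the same test on total reads called 1 gene (0.0105%), not a steady one.

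Unique reads summed per gene differed along the leaf in steady genes whose total reads were not called, and in GRMZM2G160184, where both were. In control zone 3 against zone 1, edgeR called 9711 of 21459 genes (45.3%) by unique reads, and 38 of the 140 steady genes that could be tested (27.1%), 11 upwards and 27 downwards. All 38 had 2 or more transcripts. They were 23 of 39 steady genes with 10% to 90% unique reads and 15 of 60 with under 10%, while over all candidates 54.8% and 36.6% of such genes were called. Among candidates with under 10% unique reads, 503 of 640 called genes fell, and among those with 10% to 90% 355 of 684 did. Of the 41 steady genes with 90% or more unique reads none was called, and there unique reads are nearly the reads used for the choice. The 2 fits were scaled apart, and steady genes with 1 transcript, whose counts are the same in both, came out lower by unique reads. For MPK5 the log2 change was -0.0038 by unique and 0.157 by total reads, and for GRMZM2G181359 -0.212 and -0.054. This offset also enters the split of 11 upwards and 27 downwards.

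GRMZM2G110378, first by steadiness of its total, was one of the 38. Its unique reads, 2.87% of its total, stood at 40.6, 28.8 and 41.5 per 1000000 unique reads in control zone 1, at 11.4 and 54.0 in zone 2 and at 3.22, 3.74 and 11.6 in zone 3. They were lower in zone 3 without overlap, by 2.51 ± 0.71 on the log2 scale (adjusted p = 0.0125), while the total differed by 0.04 ± 0.17 on that scale. GRMZM2G158595, at rank 9 with 49.03% unique reads, went the other way, from 43.0, 54.7 and 42.8 in control zone 1, through 95.8 and 52.3 in zone 2, to 138.4, 103.1 and 106.5 in zone 3. Its log2 change was 1.27 ± 0.30 (adjusted p = 0.00505), and that of its total was 0.0081. The named genes among the 38 were EREB14 (log2 0.85 ± 0.31, adjusted p = 0.0412) and FHA17 (-1.52 ± 0.51, adjusted p = 0.0277).

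The same shift separated libraries of a single zone. In 36 of the 38 genes control zone 2 replicate 2 was further towards the zone 3 values than replicate 3, and in 37 of the 38 UV-B zone 2 replicate 1 was further than replicate 2, and in 37 further than replicate 3. For GRMZM2G158595 these UV-B libraries held 126.8, 83.2 and 84.2 unique reads per 1000000. Control zone 2 replicate 2 had 4568682 reads and replicate 3 had 7840247, and UV-B zone 2 replicates 1, 2 and 3 had 9471340, 13887955 and 12025477. These counts were not made over the other genes called by unique reads, so it is not known whether the shift is particular to the 38. In total reads of all genes tested, deviations of control zone 2 replicate 2 from its group mean went with those of UV-B zone 2 replicate 1 (correlation 0.472). With UV-B zone 2 replicates 2 and 3 the correlations were -0.106 and -0.421. Control zone 2 had 2 libraries, so the deviations of replicate 3 were the same with opposite sign. Deviations of the 3 UV-B zone 2 libraries cancel within each gene, so correlations of both signs are partly forced. These correlations therefore do not show which library differed. The part of library differences in the unique reads of these genes was not tested.

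The gene structures of the steady genes are given beside those of all candidates. Their main transcript had a median length of 1706 bases, with quartiles of 1452 and 2020 bases, against 1310 and 2472 for all candidates with a median of 1822. The median number of exons was 8, against 7, and 1 of the 150 had a single exon (0.667%), against 287 of all candidates (5.64%). A RefSeq record was matched for 136 of the 150 (90.7%) and for 84.0% of candidates. No test was made on these features.

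Which genes made up the 150 depended on the scaling: 85 of them remained when CPM were scaled by TMM and 95 with DESeq2 size factors. Among the 150, 3 genes remained in the set under all 27 alternative ways of choosing it: MPK5, GRMZM2G181359 and GRMZM2G143651. All 3 have 1 annotated transcript, which leaves unique and total reads equal. The alternatives also included a minimum of 100 CPM, which drops any gene of lower mean level whatever its CV. Genes of the 150 below that level could therefore not remain under all 27. Their absence here does not show that they were less steady. GRMZM2G181359 (chromosome 4, 175765124 to 175769372) held 281.6, 267.9 and 265.4 CPM in control zone 1, 245.8 and 256.9 in zone 2 and 277.9, 228.4 and 234.7 in zone 3. Under UV-B it held 261.4 CPM in zone 1, 252.7, 255.4 and 257.8 in zone 2 and 223.4 and 234.8 in zone 3. Control zone 1 was above zone 2 without overlap, control zone 3 overlapped both, and UV-B zone 3 was below UV-B zone 2 without overlap.

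GRMZM2G143651 (chromosome 5, 215707062 to 215712278) held 191.2, 172.3 and 154.0 CPM in control zone 1, 200.7 and 204.3 in zone 2 and 211.7, 190.1 and 199.8 in zone 3. The UV-B libraries held 176.2 CPM in zone 1, 173.3, 192.0 and 186.0 in zone 2 and 177.1 and 184.7 in zone 3. Control zone 1 held the lowest library of all and overlapped zone 3, while control zone 2 was above control zone 1 and above UV-B zone 2 without overlap. UV-B zone 3 was below control zone 3 without overlap. With unique reads set aside, 6 genes remained under all other alternatives, which still included the minimum of 100 CPM. The genes hda101 and GRMZM2G110378 remained under 25 of 27. The gene hda101 left the set with unique reads and with a minimum of 100 CPM, which its mean level does not reach whatever its CV. GRMZM2G110378 left it with unique reads and with the RPKM of its most read transcript.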

How the data were processed

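The members, gene lists and tests were chosen with earlier results of these data known. Per the file headers, the authors deposited read counts for each transcript (total, and unique to it), RPKM values, transcript lengths and exon numbers. No source used here names the aligner, annotation or genome build. Per the labels' protocols, TruSeq stranded libraries were sequenced on an Illumina HiSeq and those with low yield were run again. Another 21 columns of 3 libraries match no label and were not used.

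Total counts of 62892 transcripts were summed to 39145 genes, and CPM used library totals. Names came from RefSeq (Zm-B73-REFERENCE-NAM-5.0): 18842 genes matched a record and 2762 had a name. Lists planned by annotation text were filled by symbol after the table was seen (26 function and 12 reference lists), since the text and sequences were not at hand; promoters were not analysed here. Named genes are the 10 of lowest CV, neighbours of the limit, list members of lowest CV, in reference lists also the most read gene, those of smallest p for transcript shares and the 3 largest rises and falls along the control leaf; other relatives named beside them, GRMZM2G143651, GRMZM2G160184, genes named for the block, Sal1, ATPB's and GRMZM2G041275's and GRMZM2G119546's UV-B values and genes named for unique reads were chosen after their values were seen.

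edgeR 4.0.16 in R 4.3.3 (filterByExpr, TMM, two-sided quasi-likelihood F test; diffSpliceDGE with Simes' method for transcript shares) was fitted to all genes in 14 libraries, as 6 groups or as zone plus treatment, with Benjamini-Hochberg adjustment and a threshold of 0.05. The scripts were tested on simulated data. Same-numbered libraries of control zones 1 and 3 carried the same number in their titles (3, 4 and 7), whose meaning the labels do not state. They also deviated together (correlations 0.312, 0.176 and 0.279), so the pairing there rests on the titles and the data. Across treatments the correlations of same-numbered libraries ran from -0.106 to 0.421, and these libraries did not pair. Alternatives were DESeq2 1.42.0, limma 3.58.1, other scaling, filters, measures of spread and libraries. The low depth of control zone 3 limits precision there. The genes of 1 reference family are not reported here by name.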

Additional observations from a re-analysis of the deposited data

How the results depend on the processing

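Of the 150 genes, 85 remained with TMM scaling, 95 with DESeq2 size factors, 44 with unique reads, 75 with the deposited RPKM of the most read transcript, 98 and 76 with minimums of 20 and 100 CPM, and 71 each with the CV of group means and the ratio of group means. The 76 are those of the 150 with a mean of at least 100 CPM, since a higher minimum leaves the order by CV unchanged. Control libraries alone kept 84 and UV-B libraries alone 72. Leaving out each library in turn kept 117 to 139, thinning to 1673416 reads 102, the SD of log2(CPM + 1) 143 and all 15 libraries 125. The set is therefore 1 choice among many near-equal genes. Steady genes called between control zones 3 and 1 (1 as reported) were 5 with DESeq2, 0 with DESeq2 size factors in edgeR, 0 with no filter, 0 with all 15 libraries, 38 with unique reads, 10 with the replicate block, and 0 to 3 when each library was left out. For transcript shares (1 as reported) they were 40 with total reads, 3 with the gene-level F test, 1 with the replicate block (536 genes in all), and 0 to 2 when each library was left out, with 2 to 318 genes in all. Between UV-B and control 0 steady genes were called under every alternative run; with the replicate block it was 45 genes in all by level and 8 by transcript shares, from numbers that do not pair across treatments: the sample titles carry other numbers (3, 4 and 7 in controls, 7, 8 and 9 under UV-B), whose meaning the labels do not state. The causes of these shifts were not tested. Between control zones 3 and 1, 51.3% of all genes tested were called as reported and 45.3% with unique reads. For transcript shares it was 5.13% as reported and 23.4% with total reads. Shares over all genes are not given here for the other alternatives, so nothing is read from their counts of steady genes. UV-B zone 1 had 1 usable library, so its spread is assumed to be that of the other groups.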

Other observations

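The steady genes lay on all 10 chromosomes. Their share of the candidates of a chromosome ran from 1.53% on chromosome 7 (6 of 392) to 3.72% on chromosome 4 (20 of 538).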
